A study of Mus musculus with 2 samples.

Results

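Annexins and S100 proteins are calcium-binding protein families that meet at the plasma membrane. The genes described here are 7 annexins (Anxa2, Anxa3, Anxa4, Anxa5, Anxa6, Anxa7 and Anxa11) and 3 S100 genes (S100a6, S100a10 and S100a11), 10 of the 14500 gene symbols in the table. They were selected by name, as the rows whose symbol is on a list drawn up with the levels of these libraries already known, so their levels and ratios are a description and carry no test. The series set 46C cells, a mouse embryonic stem cell line, that overexpress Gbx2 from a vector (library titled PB-Gbx2) against 46C cells with the empty vector (library titled PB), and asked how extra Gbx2, a homeobox transcription factor, bears on the transcriptome. 46C cells carry a green fluorescent protein reporter in the Sox1 locus, which both groups share. Both groups were grown on gelatin in serum medium with LIF, at passages 21 to 24 per the labels. The headers of both deposited levels also carry the tag P3, whose meaning is not given in the sources used here. Whether each culture was a clone or a pool is not given there either. Each group has 1 library, so no value has a replicate error.

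The source names of the samples contradict their titles, since the library titled PB carries the source name of Gbx2-overexpressing cells. Groups follow the titles here, and under the source names every direction below would turn round. Gbx2 itself had a normalized level of 1178 in the PB-Gbx2 library and 345 in the PB library, 3.41-fold higher in PB-Gbx2, which goes with the titles. Levels are whole numbers in the deposited table, normalized by the authors to 1 shared distribution whose median is 388 in each library. All 10 embryonic stem cell markers on the list were at 3430 or more in both libraries, among them Pou5f1 (10597 in PB-Gbx2, 9446 in PB) and Sox2 (10302 in PB-Gbx2, 9894 in PB).

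Annexins bind acidic phospholipids through a conserved core when calcium is present, and they act in membrane traffic, membrane repair and the link between membrane and actin. S100 proteins are small EF-hand proteins that mostly work as dimers and dock onto target proteins after binding calcium. The families meet in a heterotetramer in which an S100A10 dimer holds a pair of annexin A2 molecules by their N-termini. S100A10 has lost calcium binding, and its protein is stabilised by annexin A2. Anxa2 and S100a6 are abundant in many differentiated epithelial and mesenchymal cells.

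Anxa2 and S100a6 were lower in the PB-Gbx2 library by 3.49-fold and 3.04-fold, and none of the other 8 genes was lower by more than 1.62-fold. Of the 10 genes, 2 were at least 2-fold lower in PB-Gbx2, a call made for 5.26% of all genes and for 2.23% of the 9539 genes whose mean level lies within the range of the 10. None was at least 2-fold higher, a call made for 5.14% of all genes. The level was below that of PB for 9 of the 10, against 48.9% of all genes. The median log2 ratio of the 10 was -0.49, and that of all genes was 0.00. Without Anxa2 and S100a6 the other 8 had a median of -0.43, with 7 below 0 and S100a11 above it. Since the list was drawn up with these ratios known, the shares describe the 10 genes and do not set them apart from other genes.

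**Figure D1:**
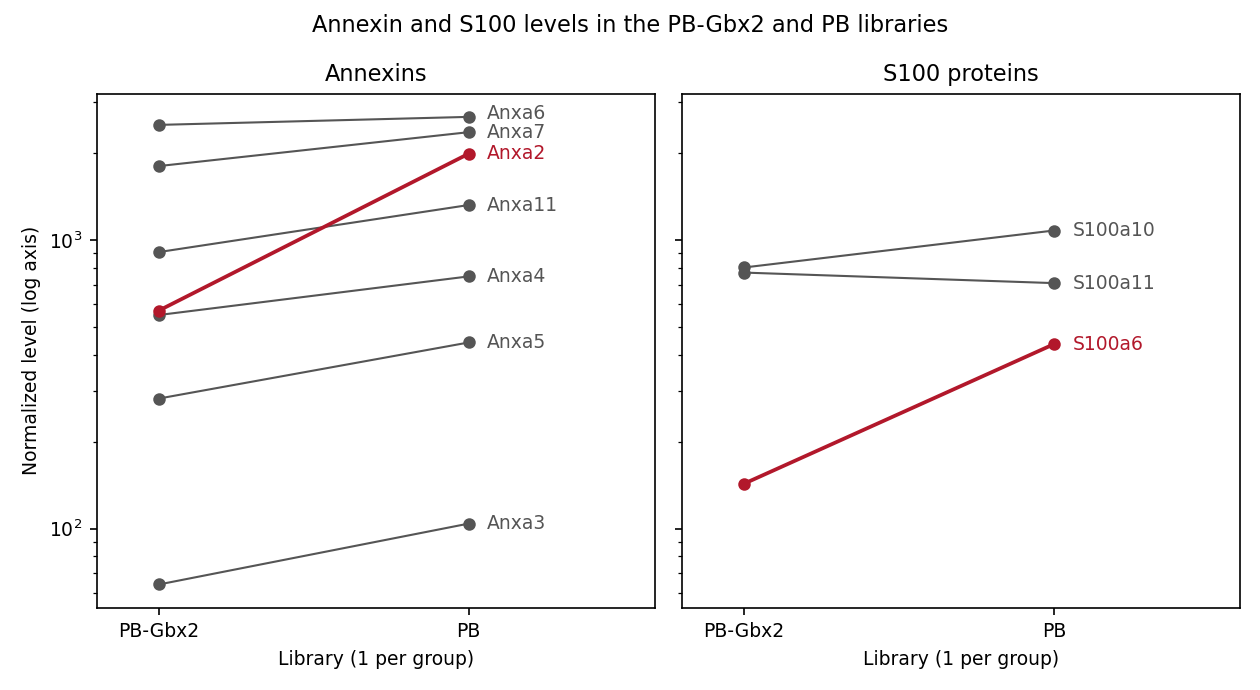
Normalized level (log axis) of each annexin (left panel) and S100 gene (right panel) in the PB-Gbx2 library and the PB library, with a line joining the values of 1 gene. Anxa2 (569 in PB-Gbx2, 1988 in PB) crosses below Anxa11, S100a6 (143 in PB-Gbx2, 435 in PB) has the steepest line of the S100 genes, and the other 8 lines are flatter.

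Anxa2 encodes annexin A2, a membrane-actin linker and, on the cell surface, a co-receptor for plasminogen and its activator tPA. Its level was 569 in the PB-Gbx2 library and 1988 in the PB library, with a log2 ratio of -1.80. Among the 725 genes of similar mean level, whose log2 ratios had an SD of 0.33, 1 gene had a lower ratio. Of the 3942 genes with a mean level of at least 1000, Anxa2 had the third lowest ratio. Among the 9539 genes in the level range of the 10, its rank from the lowest ratio was 24, and that of S100a6 was 36. In the authors' deposited table Anxa2 has an adjusted p of 0.00188, and it is the 1 gene of the 10 under 0.05 there, a call made with a lower level in PB-Gbx2 for 0.0897% of all genes.

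S100a6 encodes calcyclin, an S100 protein of proliferating and mesenchymal cells. It stood at 143 in PB-Gbx2 and 435 in PB, with a log2 ratio of -1.60. In its group of 725 genes of similar level, 3 had a lower ratio and the SD was 0.55, wider than around Anxa2. Its deposited p-value likewise comes from 1 library per group and is not used here. The distance of S100a6 from its level group therefore rests on a wider scatter than that of Anxa2, although the folds are close.

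S100a10, the partner subunit of annexin A2, stood at 802 in PB-Gbx2 and 1077 in PB, 1.34-fold lower. The partners thus had the same direction and different sizes, with log2 ratios that differed by -1.38 (Anxa2 minus S100a10). Per kilobase of transcript, the quotient of Anxa2 over S100a10 was 0.336 in PB-Gbx2 and 0.874 in PB, so it was 2.60-fold lower in PB-Gbx2. The S100a10 ratio lay at percentile 8.55 of its level group. S100a11 encodes a partner of annexin A1 and was the sole gene of the 10 with a higher level in PB-Gbx2, at 770 there and 708 in PB (1.09-fold higher). S100a10 and S100a11 are next to each other on chromosome 3 in the RefSeq map, and the reads of S100a11 cannot be fully told from copies, as given below.

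The promoters of Anxa2 and S100a6, the pair with the lowest ratios, are shown beside that of S100a11, the 1 gene that was not lower. Each run is the RefSeq sequence of build GRCm38.p6, from 250 bases before to 50 bases after the annotated start, written 5′ to 3′ along the gene; the deposited levels were made on another build, mm9. Capitals mark every match on either strand to the homeodomain core TAATTA, the AP-1 site TGAGTCA, the TATA box TATAAA, the E-box CACGTG or the GC box GGGCGG.
Anxa2 (chr9:69453433-69453732, plus strand): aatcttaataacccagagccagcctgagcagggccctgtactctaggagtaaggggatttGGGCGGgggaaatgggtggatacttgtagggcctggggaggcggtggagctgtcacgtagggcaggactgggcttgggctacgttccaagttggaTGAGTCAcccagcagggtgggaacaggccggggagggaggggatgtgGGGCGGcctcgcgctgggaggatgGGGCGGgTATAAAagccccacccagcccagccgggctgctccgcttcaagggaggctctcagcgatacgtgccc
S100a6 (chr3:90612644-90612943, plus strand): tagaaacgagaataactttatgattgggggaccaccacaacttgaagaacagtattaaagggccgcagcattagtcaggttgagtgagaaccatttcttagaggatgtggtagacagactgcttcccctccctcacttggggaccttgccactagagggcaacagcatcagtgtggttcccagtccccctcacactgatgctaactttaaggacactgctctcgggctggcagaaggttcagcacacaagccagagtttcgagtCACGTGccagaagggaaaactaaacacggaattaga
S100a11 (chr3:93520246-93520545, plus strand): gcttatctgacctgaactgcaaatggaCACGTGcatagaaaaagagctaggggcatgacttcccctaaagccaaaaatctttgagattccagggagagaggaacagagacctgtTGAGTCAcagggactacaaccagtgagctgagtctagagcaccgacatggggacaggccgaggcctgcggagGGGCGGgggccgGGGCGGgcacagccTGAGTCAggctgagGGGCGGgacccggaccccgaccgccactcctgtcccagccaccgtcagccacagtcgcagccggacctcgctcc

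The 3 windows differed in the letters they hold. The Anxa2 window has a TATA box 17 bases and an AP-1 site 95 bases before the start, and 3 GC boxes. The S100a6 window has 1 E-box, 14 bases after the start, and none of the other motifs. S100a11 has 2 AP-1 sites, 3 GC boxes and 1 E-box. Anxa2 and S100a6 thus had no motif of the 5 in common, and Anxa2 and S100a11 had AP-1 sites and GC boxes in common. Of all 32851 promoter windows in the table, 5.2% hold an AP-1 site, 13.6% a TATA box, 7.15% an E-box, 35.7% a GC box and 5.29% the homeodomain core. The last was found in 1 of the 9 windows of the 7 genes with an entry, that of Anxa5, where it begins 27 bases after the start. S100a10, Anxa3 and Anxa6 have no entry. No match of one motif overlapped a match of another in the 3 windows shown. A match is a run of letters and no measure of binding.

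The other annexins were lower in PB-Gbx2 by smaller factors. Anxa3, which encodes a short annexin best studied in myeloid cells and blood vessels, stood at 64 in PB-Gbx2 and 104 in PB (1.62-fold lower). Anxa5, whose protein binds exposed phosphatidylserine and is used to stain dying cells, stood at 282 in PB-Gbx2 and 441 in PB (1.56-fold lower). These are the members closest to Anxa2 and S100a6 in ratio. With Anxa2 and S100a6 they make 4 of the 10 at least 1.5-fold lower, a call made for 12.2% of all genes and 8.08% of genes in the level range of the 10. Their ratios lay at percentiles 17.1 (Anxa3) and 8.0 (Anxa5) of their level groups, where the log2 SD was 0.87 and 0.50.

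Anxa11, whose protein has a long N-terminus and tethers RNA granules to lysosomes, stood at 907 in PB-Gbx2 and 1320 in PB (1.46-fold lower, percentile 4.83). Anxa4, an annexin of epithelial membranes, stood at 549 in PB-Gbx2 and 747 in PB (1.36-fold lower, percentile 12.0). Anxa7, or synexin, which takes part in membrane fusion, stood at 1801 in PB-Gbx2 and 2360 in PB (1.31-fold lower, percentile 8.14). The log2 ratios of these 3 genes, Anxa5 and S100a10 lay between -0.64 and -0.39, inside the middle 95% of their level groups. Anxa6, whose protein carries a doubled annexin core, stood at 2501 in PB-Gbx2 and 2666 in PB, and differed by 1.07-fold. With 1 library per group, none of these differences can be set against replicate spread.

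**Figure D2:**
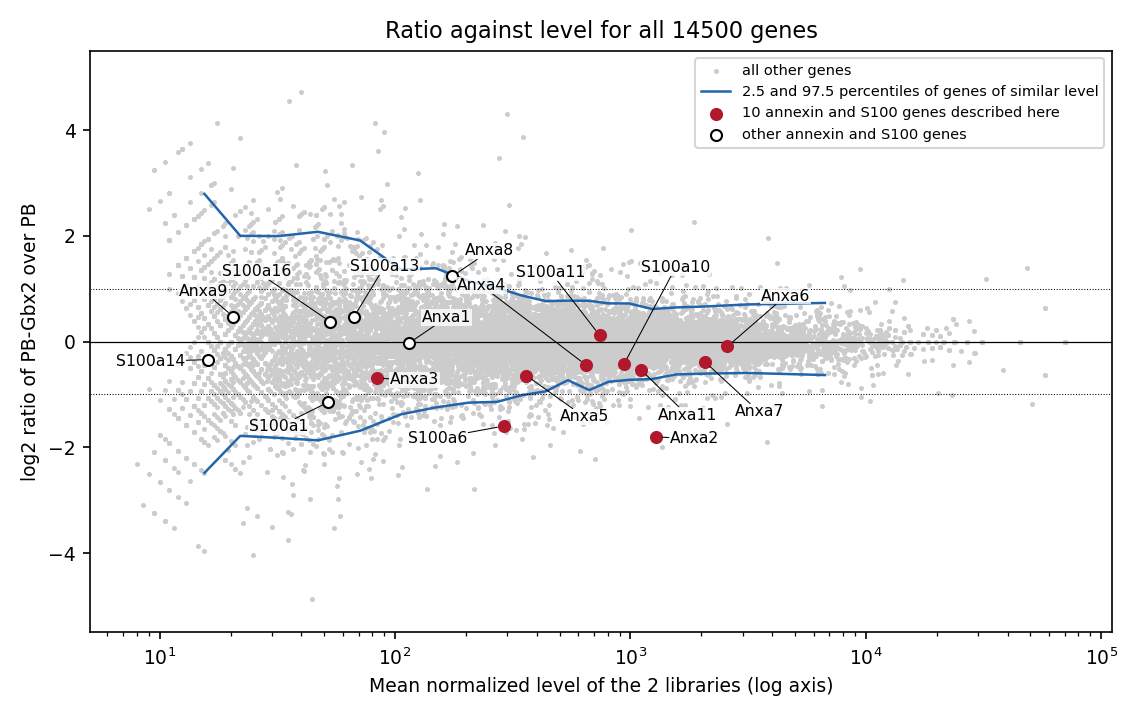
Log2 ratio of PB-Gbx2 over PB against the mean normalized level of the 2 libraries (log axis) for all 14500 genes, with the 10 genes in red, the other annexin and S100 genes in white and dotted lines at 2-fold. Anxa2 (-1.80) and S100a6 (-1.60) lie below the blue line for the 2.5 percentile of genes of similar level, and the other 8 red points lie between the blue lines.

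Levels of different genes were set side by side per length, on the assumption that the deposited levels were not yet scaled by length. Whether they were is not given in the sources used here. Per kilobase of the longest coding transcript, S100a11 (1507) and S100a10 (1171) came first in PB-Gbx2. After them came Anxa6 (1005), Anxa7 (620), Anxa2 (393), Anxa11 (379), Anxa4 (270), S100a6 (196), Anxa5 (163) and Anxa3 (40.1). In the PB library the order was S100a10 (1572), S100a11 (1386), Anxa2 (1374), Anxa6 (1071), Anxa7 (813), S100a6 (595), Anxa11 (551), Anxa4 (368), Anxa5 (255) and Anxa3 (65.2). Anxa2 was thus the most abundant annexin per length in PB and ranked below Anxa6 and Anxa7 in PB-Gbx2. Whether neighbours in these orders differ beyond their spread cannot be said without replicates. The 7 annexins summed to 2871 per kilobase in PB-Gbx2 and 4497 in PB, and the 3 S100 genes to 2873 in PB-Gbx2 and 3553 in PB.

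The annexin and S100 genes outside the 10 did not share 1 direction. Of 24 further genes of both families on the list, 7 were analysed here, with a median log2 ratio of 0.38. Anxa8, a gene of stratified epithelia whose protein is close to annexin A5, was 2.37-fold higher in PB-Gbx2, at 246 there and 104 in PB. That is the opposite direction to Anxa2, at a level at which the scatter is wider (percentile 97.7). S100a1, a gene of heart and muscle, was 2.25-fold lower at 32 in PB-Gbx2 and 72 in PB, which is percentile 10.9 of its level group. Anxa1, the usual partner of S100A11, stood at 114 in PB-Gbx2 and 116 in PB. The remaining 4, Anxa9, S100a13, S100a14 and S100a16, had levels of 14 to 78 and log2 ratios between -0.34 and 0.47. The difference between these genes and the 10 was not tested.

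Most mouse S100 genes lie in 1 cluster on chromosome 3, and all 7 S100 genes analysed here are on that chromosome. In RefSeq map order they are S100a1, S100a13, S100a14, S100a16, S100a6, S100a11 and S100a10. The log2 ratios along this order were -1.15, 0.47, -0.34, 0.38, -1.60, 0.12 and -0.42, so genes beside each other differed in direction. Many coding genes lie between S100a6 and S100a11 in that map. S100a16, the analysed neighbour of S100a6, stood at 60 in PB-Gbx2 and 46 in PB. Anxa2, on chromosome 9, also had flanking genes with smaller ratios: Ice2 stood at 387 in PB-Gbx2 and 434 in PB, and Bnip2 at 732 in PB-Gbx2 and 664 in PB. Beyond Ice2, the analysed genes Rora (118 in PB-Gbx2, 170 in PB) and Vps13c (1220 in PB-Gbx2, 1867 in PB) were lower too. Their log2 ratios were -0.52 and -0.61. Beyond Bnip2, Gtf2a2 (974 in PB-Gbx2, 817 in PB) and Fam81a (844 in PB-Gbx2, 711 in PB) were higher.

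**Figure D3:**
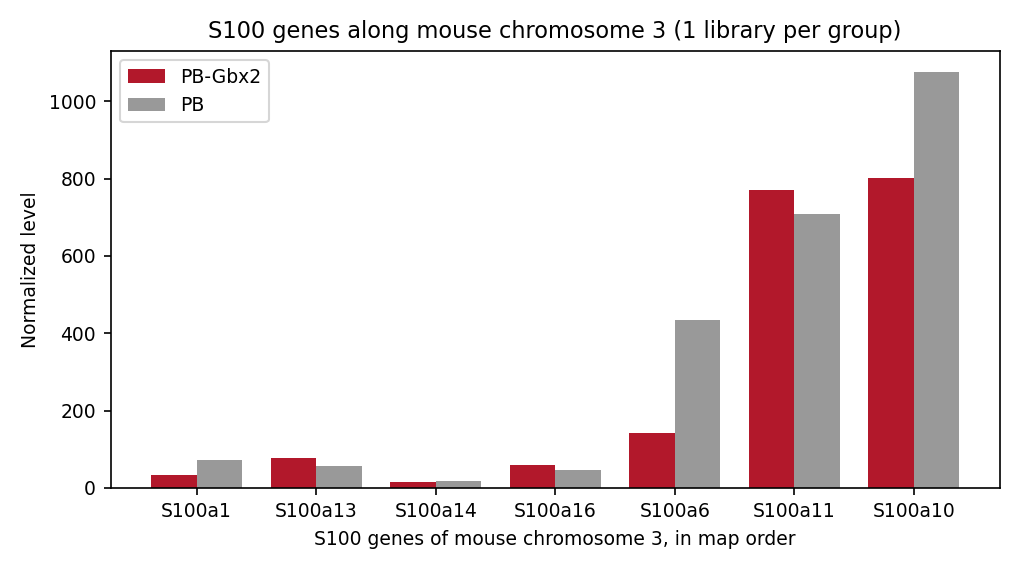
Normalized level (linear axis from 0) of the 7 analysed S100 genes of mouse chromosome 3, in map order and not to distance, in the PB-Gbx2 library (red) and the PB library (grey), 1 library each. S100a6 (143 in PB-Gbx2, 435 in PB) shows the widest gap in fold, while S100a11 beside it in this order is slightly higher in PB-Gbx2 (770 against 708 in PB).

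Copies and overlapping genes limit several of these values. At 95% identity over at least 100 bases, 8 of the 10 transcripts had no match to a transcript of another gene in GENCODE M21. S100a11 matched the processed pseudogenes Gm12854 (99.0% over 297 bases) and Gm7665 (98.7% over 297 bases), and Anxa11 matched the pseudogenes Gm2260 (100% over 657 bases) and Gm2274 (100% over 602 bases). How the authors' counting split such reads is not given in the sources used here. Anxa11os, an antisense transcript within Anxa11 that shares 117 bases with its exons, stood at 2 in PB-Gbx2 and 48 in PB. The library kit named in the labels does not mark strand, so reads from the shared stretch cannot be assigned to Anxa11 or Anxa11os. GENCODE M21 also places genes on the opposite strand that overlap the loci of Anxa2 (the antisense transcript Gm16144) and Anxa4 (the lincRNA Gm44036). On the same strand, Mir3109 overlaps Anxa2, Gm42603 overlaps Anxa3 and Mir7009 overlaps Anxa5. Outside the 10, genes on the opposite strand overlap Anxa1 (1500015L24Rik), Anxa8 (A630023A22Rik) and Anxa9 (Mindy1), and 6330562C20Rik overlaps Anxa9 on the same strand. The levels of these overlapping genes were not analysed here, and reads from any stretch they share with an annexin cannot be told apart.

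Known partners of annexin A2 and S100A10 were mixed. Of all genes, 48.9% were below 0, 12.2% at least 1.5-fold lower, 5.26% at least 2-fold lower and 5.14% at least 2-fold higher. These shares stand beside the counts of this list and of the lists below. Of 18 listed partners 10 were analysed here, with a median log2 ratio of -0.13, 1 at least 2-fold lower and 0 higher. The 1 was Dysf, which encodes the membrane-repair protein dysferlin, at 248 in PB-Gbx2 and 642 in PB (2.59-fold lower). Ahnak, the giant scaffold bound by the annexin A2 and S100A10 complex, stood at 2160 in PB-Gbx2 and 2541 in PB. Dlc1, a GTPase-activating protein bound by S100A10, stood at 3407 in PB-Gbx2 and 2344 in PB. Ctsb (2400 in PB-Gbx2, 2232 in PB) and Hltf (1322 in PB-Gbx2, 1354 in PB) differed by less. Apart from Dysf, the partners named so far differed by less than 1.5-fold, against the 3.49-fold difference of Anxa2. Of the 10 analysed, 2 were at least 1.5-fold lower and 0 higher: Dysf and the little expressed Plat (26 in PB-Gbx2, 52 in PB).

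Of the 10 listed partners of S100A6 and S100A11, none passed 2-fold, and the median log2 ratio was -0.19. Cacybp, the calcyclin-binding protein, stood at 7942 in PB-Gbx2 and 10292 in PB, against the 3.04-fold difference of S100a6. The co-chaperones Stip1 (8530 in PB-Gbx2, 9467 in PB) and Fkbp4 (9084 in PB-Gbx2, 10597 in PB) were slightly lower. Ncl, or nucleolin, stood at 45116 in PB-Gbx2 and 70328 in PB, the highest value of the scale, where ratios are coarse. Partners of annexins A6, A7 and A11 had a median of -0.06 over 6 genes. Lgals3, the lectin galectin-3, was the 1 past 2-fold, at 258 in PB-Gbx2 and 569 in PB (2.21-fold lower). Pdcd6 (636 in PB-Gbx2, 576 in PB), Pdcd6ip (1794 in PB-Gbx2, 1502 in PB), Rasa1 (644 in PB-Gbx2, 608 in PB) and the annexin A7 partner Sri (281 in PB-Gbx2, 325 in PB) differed by less than 1.5-fold.

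Of 8 analysed genes of the plasminogen system, which annexin A2 serves at the cell surface, 0 were at least 2-fold lower and 2 higher in PB-Gbx2. Serpine2, the protease inhibitor nexin-1, stood at 980 in PB-Gbx2 and 397 in PB (2.47-fold higher). The other 6 did not reach 2-fold on the log2(level + 1) scale. Plat, which encodes tPA, was at 26 in PB-Gbx2 and 52 in PB, the urokinase receptor Plaur at 328 in PB-Gbx2 and 268 in PB, Plgrkt at 216 in PB-Gbx2 and 272 in PB, and Eno1 at 23822 in PB-Gbx2 and 26878 in PB. The list median was -0.09, and 0.29 at a minimum level of 100. The direction of Serpine2 was thus opposite to that of Anxa2.

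Plasma membrane repair genes, where annexins act with dysferlin and calpains, had 2 of 18 at least 2-fold lower and 1 higher, with a median log2 ratio of 0.08. The lower pair was Dysf and Capn2, a calpain protease subunit, at 196 in PB-Gbx2 and 399 in PB, and the higher gene was the little expressed Trim72 (22 in PB-Gbx2, 10 in PB), named after its value was seen. Myof, the dysferlin paralog myoferlin, stood at 4984 in PB-Gbx2 and 3058 in PB (1.63-fold higher), the opposite of Dysf. The calpain small subunit Capns1 (5712 in PB-Gbx2, 4774 in PB), Ehd1 (2662 in PB-Gbx2, 2397 in PB) and the ESCRT subunit Chmp2a (2814 in PB-Gbx2, 3168 in PB) differed by less than 1.5-fold.

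Among 29 other EF-hand genes, the wider family of the S100 proteins, 1 was at least 2-fold lower and none higher, and the median log2 ratio was 0.04. Calm2 and Calm3, which both encode calmodulin, differed in direction: Calm2 stood at 9446 in PB-Gbx2 and 5918 in PB, and Calm3 at 4402 in PB-Gbx2 and 6200 in PB. Calu, a calcium-binding protein of the secretory pathway, stood at 9084 in PB-Gbx2 and 6994 in PB. The 1 past 2-fold was the little expressed Calml4, at 13 in PB-Gbx2 and 70 in PB, named after its value was seen.

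C2-domain proteins bind phospholipid with calcium by another fold than annexins. Of 21 analysed genes, 15 were below 0 (48.9% of all genes), 3 were at least 2-fold lower (5.26%) and 2 higher (5.14%). The median log2 ratio was -0.47, close to the -0.49 of the 10. Cpne9 stood at 42 in PB-Gbx2 and 125 in PB, and Cpne3, a widely expressed copine, at 932 in PB-Gbx2 and 1389 in PB. The extended synaptotagmin Esyt1 stood at 1488 in PB-Gbx2 and 1854 in PB, and Rasa4 at 784 in PB-Gbx2 and 1044 in PB. Esyt2 (698 in PB-Gbx2, 685 in PB) did not share the direction. The other genes past 2-fold, named after their values were seen, were Doc2a and Syt1 (lower) and Cpne2 and Rph3a (higher), none above a level of 63. The list includes genes of low level, and at a minimum level of 100 its median log2 ratio was -0.55. Its median was not tested against other lists.

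Genes of the actin cortex, to which annexin A2 links the membrane, had a median log2 ratio of -0.04 over 30 genes. Actb stood at 12282 in both libraries, Actg1 at 8901 in PB-Gbx2 and 6864 in PB, Flna at 8695 in PB-Gbx2 and 8926 in PB, and Actn4 at 7780 in PB-Gbx2 and 8695 in PB. Of the 30, 2 were at least 2-fold lower, Lgals3 and Cnn1, and 1 was higher, Tagln. The smooth-muscle genes Cnn1 (24 in PB-Gbx2, 84 in PB) and Tagln (44 in PB-Gbx2, 20 in PB), named after their values were seen, were at low levels and went in opposite directions.

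**Figure D4:**
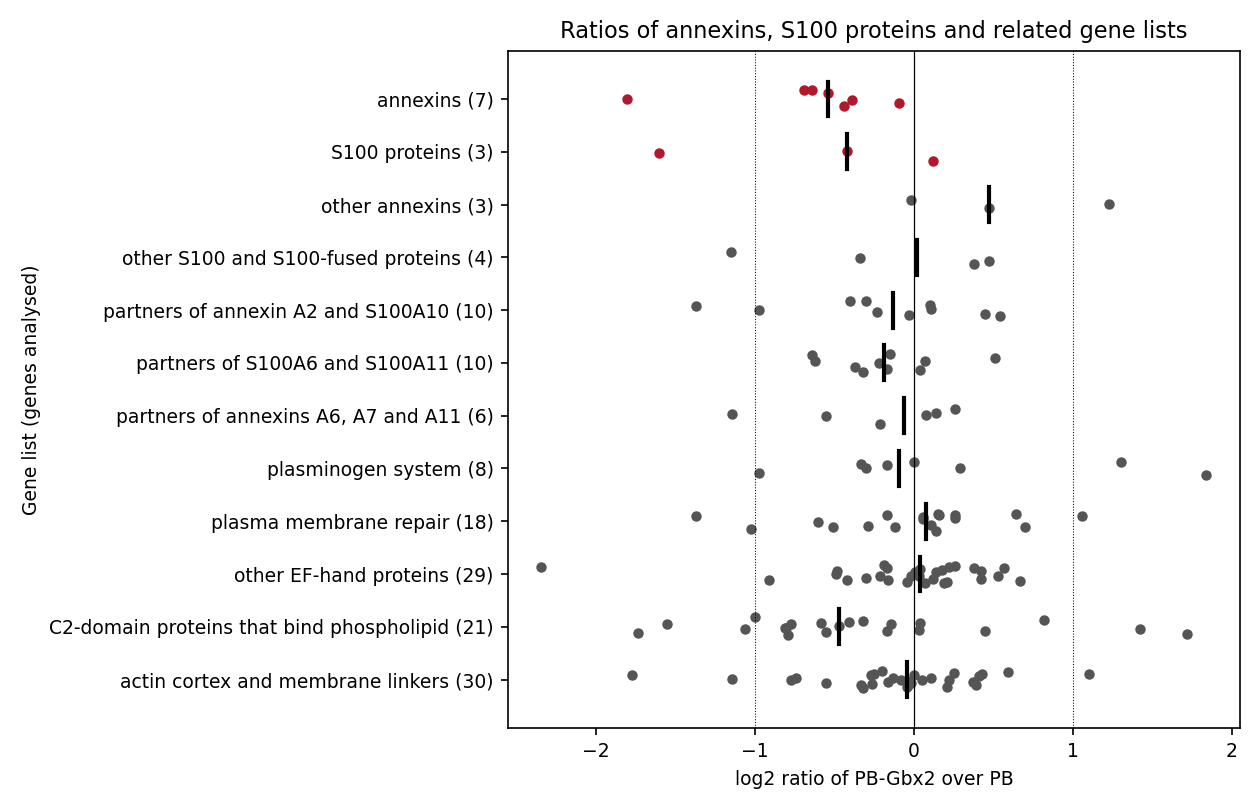
Log2 ratio of PB-Gbx2 over PB (horizontal axis) of each gene in the 7 annexins and 3 S100 genes (red) and in 10 related lists (grey), with the median of each list as a black bar, dotted lines at 2-fold and the number of genes in brackets; vertical scatter within a list has no meaning. The 2 red points left of the dotted line are Anxa2 and S100a6, and list medians lie between -0.54 for the annexins and 0.47 for the other annexins.

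Markers of other cell types are given here beside the lower levels of Anxa2 and S100a6. Of 10 listed trophectoderm and simple epithelium markers, 6 were analysed and 4 were at least 2-fold lower in PB-Gbx2, all keratins: Krt19 stood at 54 in PB-Gbx2 and 377 in PB, Krt8 at 225 in PB-Gbx2 and 532 in PB, Krt18 at 164 in PB-Gbx2 and 363 in PB, and Krt7 at 4 in PB-Gbx2 and 43 in PB. The transcription factors Tfap2c (2439 in PB-Gbx2, 1441 in PB) and Eomes (215 in PB-Gbx2, 128 in PB) of this list were higher. The summed level of the list was 3101 in PB-Gbx2 and 2884 in PB, and Tfap2c made up the largest part of both sums. The median log2 ratio of the list was -1.19. Of 14 fibroblast markers 6 were analysed, with a summed level of 1107 in PB-Gbx2 and 1711 in PB. Among them Col1a1 was at least 2-fold lower (36 in PB-Gbx2, 132 in PB) and Thy1 stood at 492 in PB-Gbx2 and 866 in PB. The log2 ratio was below 0 for 4 of the 6 and above 0 for the other 2, Col1a2 (18 in PB-Gbx2, 9 in PB) and Twist1 (26 in PB-Gbx2, 16 in PB), named after their values were seen. Of 11 primitive and parietal endoderm markers 8 were analysed, with a summed level of 9581 in PB-Gbx2 and 8683 in PB, 0 at least 2-fold lower and 1 higher, Gata6 (45 in PB-Gbx2, 18 in PB), named after its value was seen.

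The 10 embryonic stem cell markers summed to 146521 in PB-Gbx2 and 108841 in PB, with Nanog (19872 in PB-Gbx2, 8918 in PB), Klf4 (10924 in PB-Gbx2, 4701 in PB) and Zfp42 (16671 in PB-Gbx2, 8320 in PB) at least 2-fold higher. The part of other cell types in the levels of Anxa2 and S100a6 was not tested. In bulk RNA, fewer cells of a type and less RNA per cell cannot be told apart.

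Over the 2 libraries, the genes with levels most like those of Anxa2 were Kif21b (548 in PB-Gbx2, 2176 in PB), a kinesin, and Aldoc (583 in PB-Gbx2, 1590 in PB), a glycolytic aldolase, at distances of 0.14 and 0.32 on the log2 scale. For S100a6 they were Ltbp3 (138 in PB-Gbx2, 452 in PB), which encodes a TGF-beta binding protein of the matrix, Myo1g (150 in PB-Gbx2, 450 in PB), a membrane-bound myosin, and Rhpn1 (150 in PB-Gbx2, 466 in PB), at 0.075, 0.084 and 0.12. No annexin or S100 gene was among the 3 nearest of either. Likeness over 2 libraries means only that both levels were close.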

How the data were processed

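RNA of 1 PB-Gbx2 and 1 PB library was sequenced. The submitters' processing notes name STAR and the build mm9; no versions, annotation or counting tool are given in the sources used here. The levels deposited by the authors were treated as a score: both libraries hold the same sorted values in all 14501 rows, with a total of 16528899 each, so they are normalized and rounded, not read counts, and depth is unknown. The ratio and the log2 ratio deposited by the authors run PB over PB-Gbx2. The authors also deposited a p-value and an adjusted p-value per gene, from 1 library per group, by a tool that the file headers do not name.

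Rows sharing a symbol were summed, leaving 14500 symbols. Log2 ratios are PB-Gbx2 over PB with 1 added to both levels, so low genes appear less changed than they are. Genes at a log2 ratio of at most -1 or at least 1 were called 2-fold lower or higher. Folds in the text are quotients of the deposited levels. Percentiles place a log2 ratio among genes of similar mean level (20 groups of equal size). No test was made, because each group has 1 library. The members, lists, motifs and neighbouring genes were chosen with earlier results of these data known. Named genes are the annexin and S100 genes, an antisense gene of a member, listed genes past 2-fold that reach a level of 100, up to 4 further genes of highest level per list, and the 3 genes nearest in level to Anxa2 and S100a6; a few genes that this rule covers are not reported here. Per-length values and quotients used the longest coding transcript in GENCODE M21 and assumed levels not yet scaled by length. Copies were searched with BLAST 2.17.0. The code that makes the calls was checked by putting known fold changes into the PB levels without noise. That checks the arithmetic and says nothing about how reliable the calls are. The work used Python 3.11.15, numpy 2.4.6 and pandas 2.3.3. Alternatives were other pseudocounts, minimum levels, scalings and fold thresholds.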

Additional observations from a re-analysis of the deposited data

How the results depend on the processing

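No paired analysis was possible because there are no replicates, and no library could be left out. At a 1.5-fold threshold, 4 of the 10 annexin and S100 genes were lower in PB-Gbx2, with 27 of the other listed genes lower and 22 higher (14 and 11 at 2-fold) and 1770 of all genes lower and 1684 higher (762 and 746 at 2-fold). At a minimum level of 100, 8 of the other listed genes were lower and 6 higher, and 259 of all genes were lower and 269 higher. The other 57 of 66 results for counts and medians of lists as a whole stayed within 1.5 times or 1.5-fold of the reported value under the alternatives run, as did all 90 for single annexin and S100 genes and Gbx2 and all 97 for list medians. Within that limit, at a minimum level of 100 the median log2 ratio of the plasminogen system list turned to 0.29 (reported -0.09) and that of the fibroblast markers was -0.81 (reported -0.35). Rescaling by the median, a minimum level of 5 or none, and a choice between rows of 1 symbol say nothing about stability. The levels already share 1 distribution, and the lowest mean level is 8, so every gene reaches 5 in at least 1 library. Over the alternatives the log2 ratio of Anxa2 was -1.80 throughout and that of S100a6 between -1.61 and -1.57, while the median of the 10 lay between -0.54 and -0.43. That range includes leaving out Anxa11 and S100a11, or Anxa2 and S100a6, chosen after seeing the data. Read counts are unknown, so counting error could not be given.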
